A study of Mus musculus with 8 samples.

Results

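The regions described here are narrow peaks of accessible chromatin that lie deep inside protein-coding genes. A peak was taken when it lay on chromosomes 1 to 19, was under 300 bp wide, and had its centre inside a protein-coding gene of the RefSeq annotation of GRCm38, more than 10 kb away from the ends of all protein-coding genes. The rule found 18576 peaks, which is 24.6% (exact 95% binomial interval 24.3 to 24.9) of the 75462 autosomal peaks. The whole deposited list held 76996 peaks. The rule used position and width alone, so neither the count nor the distance from gene ends is a result in itself.

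The peaks came from ATAC-seq, in which the transposase Tn5 inserts sequencing adapters into open DNA, of 8 samples of RHKI, a line of mouse embryonic stem cells. It derives from E14Tg2a and carries an HA-Rnaseh1 knock-in in every sample, in control and treated cells alike. Rnaseh1 encodes the nuclease that removes the RNA strand of RNA-DNA hybrids. Doxycycline was absent from the 4 control samples and given to the 4 Dox samples at 500 ng/ml over 48 h, and 2i/LIF medium, which keeps stem cells naive, was used throughout. The labels do not say whether replicates were separate cultures, whether the line is 1 clone, or what promoter drives the transgene, and induction was not measured. The 8 samples shared 1 peak list with positions and no value per sample, so Dox was not compared with control, replicate errors cannot be given, and read depth is unknown. Of 8 embryonic stem cell markers, 6 had a peak at a gene end and 8 had one at an end or inside. The corresponding counts of 8 were 4 and 5 for fibroblast markers, 3 and 7 for primitive endoderm markers, and 6 and 8 for neural markers. A list without peak heights thus did not separate these cell types, and the share of other cells in the samples was not tested.

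Open chromatin inside a gene body is known to mark several kinds of element. Enhancers sit in introns of their own or a neighbouring gene and are bound by transcription factors, and internal promoters start shorter transcripts that share the gene's 3′ exons. Promoters with many CpG dinucleotides, called CpG islands, are often open across tissues, while enhancers tend to be open in few cell types, and in naive stem cells many lie in genes of the pluripotency network.

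The annotated starts deep inside genes are shown first, because they are the only class of these peaks for which a known element and its sequence can be printed. A start counted as deep when its base met the same position rule as a peak centre, and starts of 1 gene within 300 bp were joined. The RefSeq promoter table used, which does not hold every gene, gave 1339 such protein-coding starts in 1031 genes. A member overlapped the window from 250 bases before to 50 bases after the start at 385 of them (28.8%, exact 95% interval 26.3 to 31.3), in 357 genes. At another 51 starts a peak that was too wide or otherwise outside the rule overlapped the window, and 903 had no peak. At all 385 starts the member lay within the gene to which the start belongs. The 6 sequences below are the 250 bases before such a start, 5′ to 3′ on the strand of the gene, from RefSeq for GRCm38.p6. Capitals mark the bases that lie within the member. The genes were chosen after their values were seen, as regulators of DNA methylation, stem cell signalling, histones and lineage choice whose internal start was covered by a member.
Dnmt3a, chr12:3891494-3891743, plus strand: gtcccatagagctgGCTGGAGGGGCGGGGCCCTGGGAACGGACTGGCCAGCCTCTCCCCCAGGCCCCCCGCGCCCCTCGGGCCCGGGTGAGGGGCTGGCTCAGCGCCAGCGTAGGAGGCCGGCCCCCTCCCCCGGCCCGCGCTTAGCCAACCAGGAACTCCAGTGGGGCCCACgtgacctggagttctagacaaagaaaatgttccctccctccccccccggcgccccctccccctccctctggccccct
Esrrb, chr12:86421394-86421643, plus strand: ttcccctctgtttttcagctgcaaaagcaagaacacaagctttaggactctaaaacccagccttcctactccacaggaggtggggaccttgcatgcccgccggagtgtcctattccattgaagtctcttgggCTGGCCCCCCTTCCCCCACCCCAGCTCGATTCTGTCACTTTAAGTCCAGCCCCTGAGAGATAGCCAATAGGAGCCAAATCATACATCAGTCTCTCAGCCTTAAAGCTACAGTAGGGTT
Lifr, chr15:7140292-7140541, plus strand: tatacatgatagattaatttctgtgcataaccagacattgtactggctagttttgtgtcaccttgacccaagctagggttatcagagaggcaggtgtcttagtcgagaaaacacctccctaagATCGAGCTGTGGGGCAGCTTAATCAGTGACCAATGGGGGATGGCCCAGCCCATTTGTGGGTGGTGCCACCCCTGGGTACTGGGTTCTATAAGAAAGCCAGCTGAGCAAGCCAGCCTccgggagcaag
Kdm2b, chr5:122900368-122900617, minus strand: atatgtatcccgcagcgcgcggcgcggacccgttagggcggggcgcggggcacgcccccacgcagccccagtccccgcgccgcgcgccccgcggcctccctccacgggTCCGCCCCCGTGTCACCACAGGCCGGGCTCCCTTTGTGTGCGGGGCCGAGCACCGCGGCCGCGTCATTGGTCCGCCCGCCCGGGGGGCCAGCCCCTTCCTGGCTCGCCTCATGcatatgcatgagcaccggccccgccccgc
Mecom, chr3:30013205-30013454, minus strand: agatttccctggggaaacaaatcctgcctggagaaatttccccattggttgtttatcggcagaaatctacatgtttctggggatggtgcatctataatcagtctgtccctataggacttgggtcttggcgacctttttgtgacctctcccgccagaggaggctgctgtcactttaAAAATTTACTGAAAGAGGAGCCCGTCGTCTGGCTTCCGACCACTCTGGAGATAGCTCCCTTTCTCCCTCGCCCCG
Runx1, chr16:92697330-92697579, minus strand: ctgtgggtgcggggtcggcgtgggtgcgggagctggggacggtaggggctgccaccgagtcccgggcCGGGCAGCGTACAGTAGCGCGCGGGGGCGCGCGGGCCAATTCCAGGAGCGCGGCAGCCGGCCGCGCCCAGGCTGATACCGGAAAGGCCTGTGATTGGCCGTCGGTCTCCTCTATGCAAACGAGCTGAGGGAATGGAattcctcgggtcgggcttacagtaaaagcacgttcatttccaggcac

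Dnmt3a encodes a de novo DNA methyltransferase, and its internal start lay 90.2 kb into the gene, at 79.9% of its length. The member there was 159 bp wide (chr12:3891508-3891666), and the 250 bases were 73.6% G or C with 15 CpG. At Kdm2b, which encodes a histone demethylase that binds unmethylated CpG, the start lay 88.9 kb in, at 75% of the gene. Its window was 78% G or C with 36 CpG and an observed over expected CpG ratio of 0.971. Runx1 and Mecom encode transcription factors of blood development. The Runx1 start lay 129 kb in with 27 CpG (67.6% G or C), and the Mecom start lay 497 kb in, at 88.9% of the gene, with 8 CpG (50.4% G or C). Esrrb, an orphan nuclear receptor of naive pluripotency, and Lifr, the receptor subunit that binds LIF, had CpG-poor internal starts with 3 CpG each. They lay 60.5 kb and 49.9 kb into the gene, with G or C shares of 52% and 50.8%. The 6 sequences therefore ranged from CpG-rich (Kdm2b, Runx1) to CpG-poor (Esrrb, Lifr), and the member covered 75 of the 250 bases at Mecom to 159 at Dnmt3a.

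The covered starts had more G and C and more CpG than the uncovered ones. Their median G or C share was 58% (quartiles 51.6 to 65.6) against 48.4% (43.2 to 54.4) in the 903 without a peak. The median CpG ratio, observed over expected, was 0.531 (0.312 to 0.76) against 0.248 (0.144 to 0.404). With CpG-rich defined as over 50% G or C and a ratio above 0.6, 37.7% of covered starts were CpG-rich and 7.31% of uncovered ones. Counted the other way, a member lay at 145 of 248 CpG-rich deep starts (58.5%, 52.1 to 64.7) and at 240 of 1091 others (22%, 19.6 to 24.6). These intervals do not overlap. Of the 248 CpG-rich deep starts, 66 had no peak of any kind. The rest of those without a member were overlapped by a peak outside the rule. Protein-coding starts elsewhere on the autosomes, of which 43.1% were CpG-rich, were overlapped by a peak of any width at 9165 of 17620 (52%, 51.3 to 52.8). For deep protein-coding starts the share was 28.8% with members and 32.3% when the width limit was dropped.

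Short motifs were counted in the 250 bases on both strands. The GC box GGGCGG stood at 54% of covered starts, 16.6% of uncovered starts and 32.8% of the 29394 autosomal promoters in that table. In the printed sequences it occurred in Dnmt3a (1 match, within the member) and Kdm2b (5 matches, 3 of them within the member). The TATA letters TATAAA went the other way, with 5.45%, 14.2% and 12.7%. CCAAT stood at 35.3%, 30.8% and 33.8%. Within the member it occurred in Esrrb, Lifr and Kdm2b at 1 place each and in Runx1 at 2. The octamer ATGCAAAT, known from Pou5f1 and other POU factors, was found at 2.34%, 1.99% and 1.6%, and the E-box CACGTG at 4.94%, 3.99% and 5.93%. The Esrrb motif TCAAGGTCA was in 0 of the 385 covered windows, 6 of the 903 uncovered windows (0.664%) and 0.371% of the promoters in the table. None of these letter strings contains another. The shares were not adjusted for base composition, and covered starts had more G and C than uncovered ones (medians 58% and 48.4%). Strings of only G and C or only A and T are therefore not compared on equal terms. A match is a description of letters, not a bound site.

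Peaks gathered at the internal starts, most densely in the 200 bp upstream. In the 200 bp before a protein-coding start the density of member centres was 978 per Mb (exact 95% Poisson interval 863 to 1100), in the 200 bp after it 478 (399 to 568), and 5 to 10 kb away on either side 37.6 (34.4 to 41). From 200 to 800 bp away from protein-coding starts the downstream side was denser. At 200 to 400 bp it held 190 per Mb against 116 upstream, at 400 to 600 bp 187 against 112, and at 600 to 800 bp 127 against 63.5. At 800 to 1000 bp both sides held 101 per Mb, and farther out neither side was denser throughout. The windows were not trimmed to the interior that the rule allows. Starts of long non-coding RNA (lncRNA) genes deep inside protein-coding genes showed a lower maximum, 249 per Mb (198 to 310) before and 147 (108 to 195) after the start, over flanks of 35.2 (32.4 to 38.3). A member lay at 138 of 1604 such lncRNA starts (8.6%, 7.28 to 10.1). CpG-rich lncRNA starts carried a member at 26 of 71 (36.6%, 25.5 to 48.9) and the others at 112 of 1533 (7.31%, 6.05 to 8.72).

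**Figure D1:**
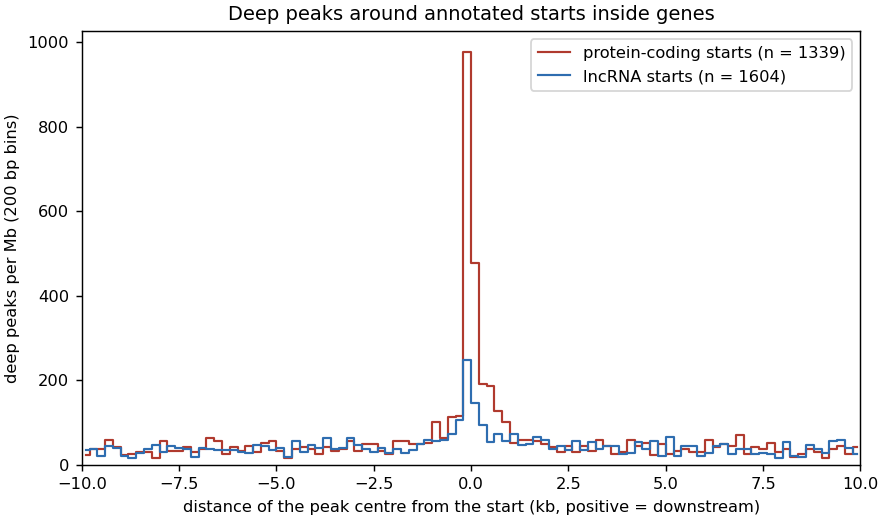
Density of deep intragenic peaks (peaks per Mb, 200 bp bins) against the distance of the peak centre from an annotated start deep inside a gene (kb, positive values downstream). The line of the 1339 protein-coding starts reached 978 per Mb just before the start and the line of the 1604 lncRNA starts 249. Averaged over 5 to 10 kb on either side, the values were 37.6 and 35.2 per Mb, with single bins scattered widely around them.

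Annotated starts nevertheless accounted for few of the peaks. Of the 18576 members, 505 (2.72%) overlapped the window of any annotated start and 384 (2.07%) that of a protein-coding start. These shares are lower limits, since the table of starts is not complete. Members at a start had a median width of 135 bp against 128 bp for the others, and 6.14% against 4.65% were 200 bp wide or more. Inside other annotation, 1097 members (5.91%) lay within an lncRNA gene, 60 within a pseudogene and 8 within a small nucleolar RNA gene. Of 223 microRNA hairpins deep inside genes, 3 were overlapped by a member. How much of the deep interior these annotations cover was not computed, so the counts cannot be read as high or low.

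The counts per gene were uneven. Of the 20554 autosomal protein-coding genes, 9410 had any base more than 10 kb from all gene ends (here called the deep interior), with a median of 28.9 kb each and 701 Mb in all. At least 1 member lay in 5032 of these genes (53.5%, 52.5 to 54.5). This share depends on gene length, and the gene lists below are read beside the share for their length. Members covered 0.359% of the interior, at 26.5 per Mb (26.1 to 26.9) or 1 per 37.8 kb. The mean per gene was 1.98 ± 3.64 (SD over 9410 genes), the median 1 and the highest 48. No member was found in 4378 genes, exactly 1 in 1831, 10 or more in 388 and 20 or more in 78. The 832 genes with most members (8.84%) held 50% of all pairs of a gene and a member. Nearly all members belonged to a single gene: 18506 lay inside 1 gene, 62 inside 2 and 8 inside 3 or more.

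Longer genes held more of these peaks, but fewer per Mb. Across the 9410 genes the number of members followed gene length with a Spearman coefficient of 0.604 and deep interior with 0.613, and Pearson's r on log scales was 0.624. Genes are not independent replicates, and the interior that can hold a member grows with length by construction. Genes of 20 to 50 kb held 0.503 ± 0.929 members (mean ± SD, n = 4696), and 31.3% of them held any. Genes of 50 to 100 kb held 1.88 ± 2.25 (n = 2403), those of 100 to 200 kb 3.77 ± 4.06 (n = 1367), those of 200 to 500 kb 6.62 ± 6.74 (n = 729) and those over 500 kb 8.29 ± 8.05 (n = 215). The share with a member climbed along these classes from 67.1% to 80.2%, 88.8% and 95.3%.

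Per Mb of interior the order was the reverse. Density was 43.1 (41.4 to 44.9) in genes of 20 to 50 kb, 38.3 (37.2 to 39.5) at 50 to 100 kb, 33.1 (32.2 to 34.1) at 100 to 200 kb, 23.7 (23 to 24.4) at 200 to 500 kb and 10.2 (9.72 to 10.7) over 500 kb. The shortest class was denser than the longest on 19 of 19 chromosomes, with ranges over chromosomes of 31.1 to 55.1 and 5.42 to 16.8 that do not overlap. Among the 5603 genes with at least 20 kb of interior, the median density per gene also ran downward, from 34.3 to 26.3, 22.9, 16.2 and 7.54 per Mb. Within a class the spread was wide, and over all these genes the Spearman coefficient of density with length was -0.0252. In the longest class the highest gene reached 55.2 per Mb, against 367 in the shortest class and 157 at 200 to 500 kb.

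**Figure D2:**
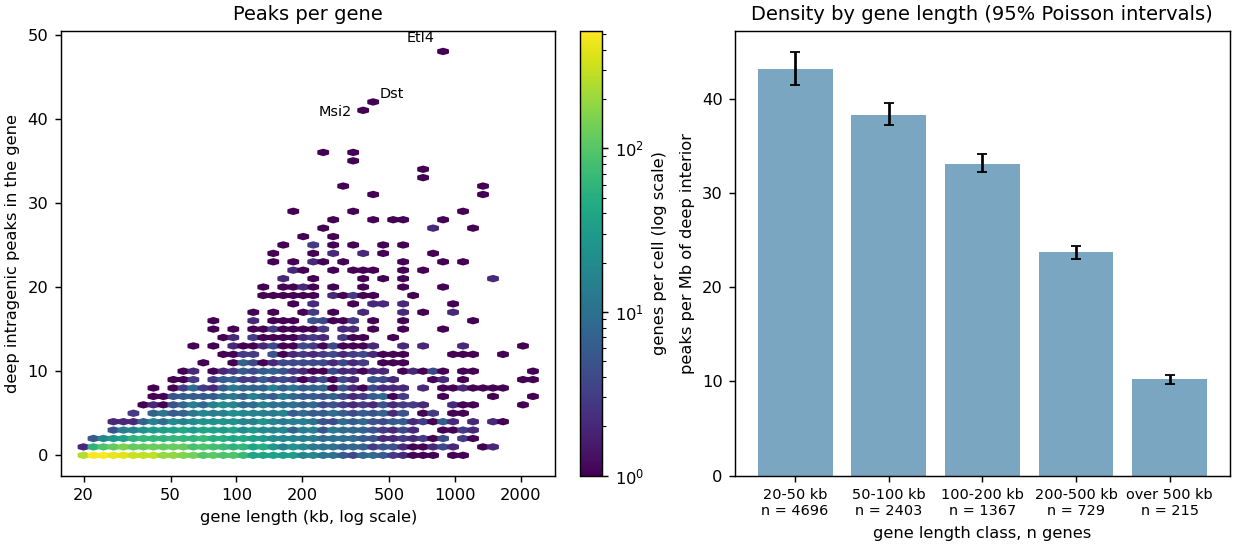
Left, number of deep intragenic peaks in each of the 9410 genes against gene length (kb, log scale), with colour for the number of genes per cell. Right, peaks per Mb of deep interior by length class with exact 95% Poisson intervals, which are 43.1 in genes of 20 to 50 kb and 10.2 in genes over 500 kb.

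Counts varied between genes of like size by more than counting error. In genes with 20 to 40 kb of interior the mean was 1.15 ± 1.51 (SD, n = 1713) and the variance was 1.98 times the mean, where 1 shared density over the same interiors would give 1.05. With 160 to 320 kb of interior the mean was 6.22 ± 6.13 (n = 618) and this quotient 6.04 beside 1.26, and over 640 kb it was 8.64 beside 2.06 (n = 126). The Poisson intervals above cover counting error only and are narrower than this spread between genes. Even with 160 to 320 kb open to them, 67 of 618 genes (10.8%) held no member, while the fullest held 36.

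Distance from the gene ends went with the same decline. Density was 38.6 per Mb (37.6 to 39.6) at 10 to 20 kb from the nearest end, 31.9 at 20 to 50 kb, 25.7 at 50 to 100 kb, 16.1 at 100 to 200 kb and 8.35 (7.76 to 8.96) beyond 200 kb. Length and distance are tied, since only long genes reach far from an end. Within length classes, distance was measured from the nearer end of the gene itself. At a fixed 20 to 50 kb from it, density still ranged from 37.6 (36.2 to 39.1) in genes of 50 to 100 kb through 32.7 and 25.7 to 15 (12.9 to 17.2) in genes over 500 kb. Inside the longest class it went from 15 at 20 to 50 kb to 12.3, 11.3 and then 8.32 (7.75 to 8.93) beyond 200 kb. The median member lay 32.2 kb from the nearest end, and 2534 (13.6%) lay over 100 kb away. The most remote, chr4:77083309-77083429 in Ptprd, a receptor tyrosine phosphatase of synapses, was 1130 kb from the nearest end.

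Just outside the limits of the rule lay further peaks. There were 347 members up to 0.5 kb beyond the distance limit and 413 peaks of the same kind up to 0.5 kb short of it. Likewise 12 members were up to 10 bp below the width limit, and 12 peaks that met the rest of the rule were at it or less than 10 bp above it. In all, 547 peaks were left out for width, up to 1060 bp.

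Etl4, a gene required for development of the notochord and intervertebral discs, held the most peaks, with 48 in 880.3 kb of interior (chr2:19910207-20810535), or 54.5 per Mb (40.2 to 72.3). The next were Dst (chr1:33907888-34308662), which encodes the cytoskeletal linker dystonin, with 42 (110 per Mb), and Msi2 (chr11:88339382-88718306), which encodes an RNA-binding protein of the Musashi family, with 41 (114 per Mb). Dnah8, an axonemal dynein heavy chain of sperm tails, held 36 in 228.8 kb, the highest density of the 12 leading genes at 157 per Mb (110 to 218). Gse1 also held 36 (108 per Mb). Arid1b, a subunit of the BAF chromatin remodelling complex, held 35 (105 per Mb). The teneurin adhesion receptors Tenm4 and Tenm3 held 34 and 31. The receptor tyrosine phosphatase gene Ptprg held 33, the calcium channel gene Cacna1a 32, the cAMP phosphodiesterase gene Pde4d 32 and Ttc28 31.

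These 12 genes reached like counts in different ways. Pde4d and Tenm3 are 1302 kb and 1297 kb long and held 25 and 24.3 members per Mb, near the 26.5 of all interior though above the 10.2 of their length class. Dst, Msi2, Gse1, Arid1b, Cacna1a and Dnah8 are 248.8 to 400.8 kb long and held 105 to 157 per Mb. The median gap between neighbouring members was 4.59 kb in Dnah8, 5.65 kb in Dst and 7.79 kb in Etl4, but 18.2 kb in Pde4d and 16.8 kb in Tenm3. The longest stretch without a member was 267 kb in Tenm3, 260 kb in Pde4d and 133 kb in Etl4, against 26.1 kb in Dnah8. Internal starts carried a member in Etl4 (609 kb in, chr2:20519476-20519656), Dst (104 kb in, chr1:34011456-34011627, 22 CpG) and Gse1 (309 kb in, chr8:120537289-120537452, 32 CpG), 1 of 48, 42 and 36 members.

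**Figure D3:**
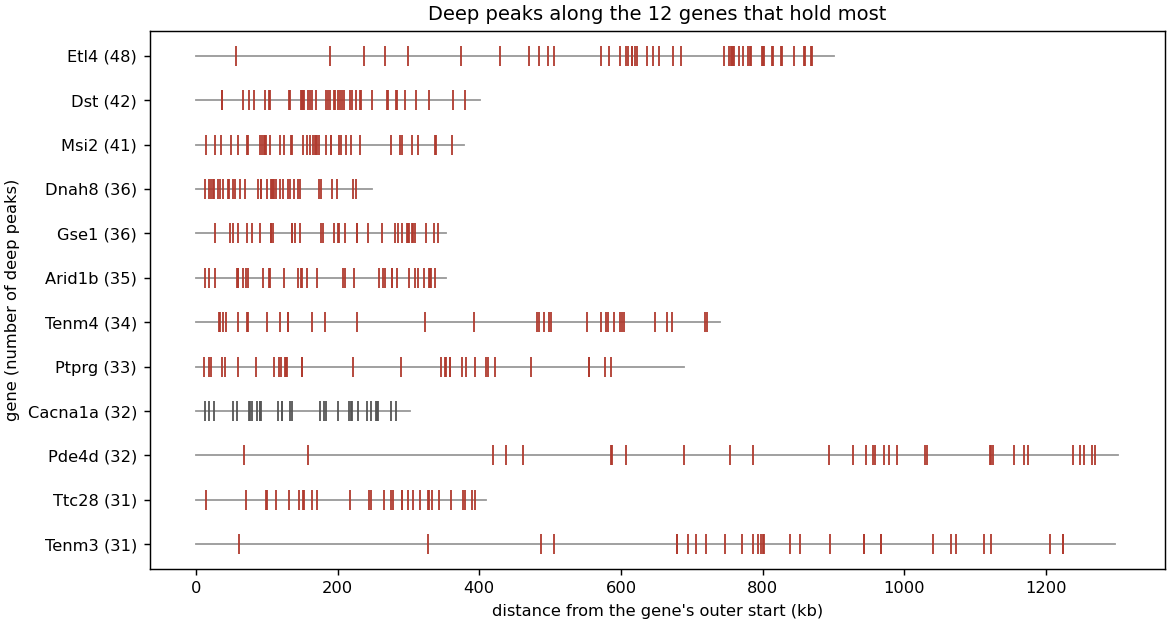
Position of each deep intragenic peak (ticks) along the 12 genes that held most, as distance from the outer start (kb) with the gene drawn as a line to scale. Etl4 with 48 peaks, Pde4d and Tenm3 hold most of their ticks on the 3′ side, and Cacna1a is drawn in grey from its lower coordinate because its strand was not in the table used.

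Small genes led by density. With at least 20 kb of interior and at least 5 members, the highest values were in C77080 (8 members, 367 per Mb, 158 to 722), the F-box gene Fbxo36 (10, 328 per Mb), the guanine nucleotide exchange factor gene Plekhg5 (7, 305 per Mb) and Cbx7 (10, 304 per Mb, 146 to 559). Cbx7 is a chromodomain subunit of a Polycomb repressive complex in stem cells. They were followed by the glucose transporter gene Slc2a3 (16, 293 per Mb), the Golgi protein gene Golm1 (6, 289 per Mb), the non-muscle myosin gene Myh14 (13, 288 per Mb) and the BMP co-receptor gene Rgma (7, 287 per Mb). The intervals of all 8 overlap one another widely, so their order is not resolved. These genes were picked for the value given, which is a description.

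The densest run of members was in Prrc2b, with 10 in 19.3 kb (chr2:32162287-32181603). Dennd2c, Slc2a3, Myh14 and Cbx7 each followed with 9 in 20 kb or less, and the 4 are tied. The Slc2a3 run spans chr6:122761186-122780116 and the Cbx7 run chr15:79931844-79950830. Members in these 5 runs had median widths of 116 to 140 bp, near the 128 bp of all members.

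At the other end stood long genes without any member. The longest interiors at 0 were those of Nrg3, a neuregulin ligand of ErbB receptors (1048 kb), the synaptic adhesion gene Cadm2 (945.5 kb), the diacylglycerol kinase gene Dgkb (734.1 kb) and the glycosyltransferase gene Galnt13 (662.1 kb). Fstl5 (615.7 kb), the potassium channel gene Kcnq5 (544.2 kb), the zinc finger gene Zfp804b (521.2 kb) and the forkhead factor gene Foxp2 (520.6 kb) completed the 8. A count of 0 allowed up to 3.52 per Mb in Nrg3 and up to 7.09 in Foxp2 (upper exact 95% Poisson bounds). These genes were picked for having 0, so the bounds describe precision only. Counting all peaks of any width and position, Nrg3, Cadm2 and Zfp804b had 0 inside the gene, Galnt13 had 2 and the other 4 had 1 each.

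Relative position along the gene was read for the 7454 genes whose strand the promoter table gave, with 14591 pairs of a gene and a member. The other 1956 genes had no strand there, 323 of them on chromosome 18, which that table does not hold. The rule removes 10 kb at both ends of a gene, so each value is a density over the interior that a stretch of the gene offers. Over all genes the 5′ side of the midpoint held 26.3 per Mb (25.7 to 26.9) and the 3′ side 27 (26.4 to 27.6), a ratio of 0.976. The 3′ side was higher on 12 of 18 chromosomes. By class the ratio of 5′ to 3′ density was 0.982 at 20 to 50 kb, 1.04 at 50 to 100 kb, 0.999 at 100 to 200 kb and 1.04 at 200 to 500 kb. In these 4 classes the intervals of both sides overlap. In 10 equal parts from start to end, genes of 200 to 500 kb ranged from 20.1 per Mb (18 to 22.4) in the seventh part to 27.3 (24.3 to 30.6) in the last.

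Genes over 500 kb differed. Their 5′ side held 8.27 per Mb (7.6 to 8.98) and their 3′ side 12.6 (11.8 to 13.5), a ratio of 0.657, and the 3′ side was higher on 16 of 18 chromosomes. Of 169 such genes with a strand, 94 held more members on the 3′ side, 45 more on the 5′ side and 30 equal numbers. From the start to the end, the density in 10 equal parts of these genes was 11, 8.14, 6.6, 8.28 and 7.69, then 11.5, 10.7, 11.5, 13.1 and 16.4 per Mb. The interval of the first of the 10 (9.18 to 13) lay above that of the third (5.33 to 8.09) and overlaps those of the second, the fourth and the fifth. The last (14.3 to 18.9) was highest. The widest excess was in Etl4, with 7 members on the 5′ side and 41 on the 3′ side. Tenm3 had 4 and 27, the postsynaptic scaffold gene Dlgap1 3 and 20, Iqschfp 3 and 19, and Pde4d 8 and 24. The axon guidance receptor gene Robo1 had 1 and 16. Iqschfp overlaps Schip1 (5 and 17), so these share members. Without the 5 genes of widest excess the ratio was 0.74.

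**Figure D4:**
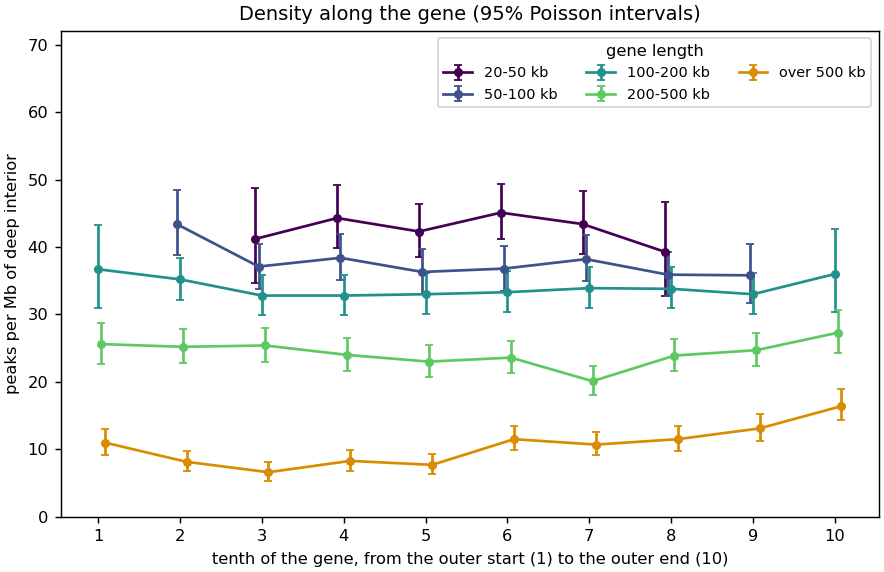
Density of deep intragenic peaks (peaks per Mb of interior, exact 95% Poisson intervals) in 10 equal parts of the gene from the outer start (1) to the outer end (10), 1 line per gene length class, with parts that the 10 kb rule leaves empty or nearly so not drawn. In the 3 shorter classes the intervals along a line overlap, genes of 200 to 500 kb range from 20.1 to 27.3, and the line of genes over 500 kb goes from 6.6 in the third part to 16.4 in the last.

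Internal starts were set beside this lean in long genes. With members at annotated starts left out, the ratio in genes over 500 kb was 0.665. In the 100 long genes whose annotated starts all lay within 10 kb of the outer start it was 0.719, and in the 69 with a start farther in 0.606. In these 69 genes density was 10.8 per Mb (9.76 to 11.8) before the last annotated start and 13 (11.6 to 14.5) after it. Pooled over all 1149 genes with a start farther in, the values were 27.6 (26.5 to 28.8) before and 27.7 (26.6 to 28.9) after it. The length classes differed, and each class up to 500 kb was denser before the last start. At 20 to 50 kb the values were 63.5 and 55.3, with overlapping intervals. At 50 to 100 kb they were 55.4 (50 to 61.2) and 40.1 (36 to 44.6). At 100 to 200 kb they were 47.3 (43.6 to 51.1) and 38.8 (36.1 to 41.8). At 200 to 500 kb they were 32.7 (30.4 to 35) and 26.9 (25 to 29). Members at the last start itself, and the bases next to it on both sides, were left out of these values.

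Genes with a peak at their outer start held more of the deep peaks. A peak within 1 kb of the outer start was present in 5295 of the 7454 genes. These had 28.4 members per Mb (27.8 to 28.9) and 56.5% of them held a member, against 22.3 (21.6 to 23.1) and 44.7% in the 2159 others. The ratio was 1.27, and genes with the peak were denser on 16 of 18 chromosomes. It was 1.41 in genes of 20 to 50 kb, 1.35 at 50 to 100 kb, 1.08 at 100 to 200 kb and 1.31 at 200 to 500 kb. At 100 to 200 kb the intervals overlap (33.1 to 35.5 and 29.8 to 33.8), and the direction held on 10 of 18 chromosomes. In genes over 500 kb it was 0.969, with overlapping intervals (9.67 to 11 with and 9.71 to 11.7 without a peak at the start). Expression was not measured here, and a peak at a start is not a measure of it.

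The interior of genes was compared with the genome deep between genes. Peaks of the same width and the same distance from gene ends, but outside protein-coding genes, numbered 18353 in 1180 Mb, or 15.5 per Mb (15.3 to 15.7). The density inside genes, 26.5, was 1.71 times this. It was higher on 19 of 19 chromosomes, from 1.4 times on chromosome 11 to 2.01 times on chromosome 14. Per chromosome the inside density ran from 20.7 (chromosome 1) to 34.9 per Mb (chromosome 11). Unmappable sequence was not removed from either denominator.

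In spacing and width the peaks inside genes were close to those outside. The median distance to the nearest member was 6.76 kb inside and 7.92 kb between peaks outside. A neighbour within 1 kb was found for 14.1% of members and 13.9% outside, within 5 kb for 42.2% and 39.3%, and within 20 kb for 73.5% and 68.4%. Over 50 kb from the nearest were 13.7% and 18.6%. The median width was 128 bp (quartiles 114 to 151) inside, 129 bp outside, and 130 bp for peaks under 300 bp within 1 kb of a gene end. Width did not go with gene length: the median was 127 bp in genes of 20 to 50 kb and 130 bp in genes over 500 kb, and 4.19% and 5.42% were 200 bp wide or more.

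Of the gene lists, naive pluripotency genes held these peaks most densely. Of its genes 13 had a deep interior, 11 of these held a member, and the median gene had 8 members and 111 per Mb. The same medians over all 9410 genes, many with short interiors, were 1 and 8.68, and 53.5% held a member. In genes of 50 to 100 kb, which includes the list's median length of 85.8 kb, 67.1% held a member, and the median of those with at least 20 kb of interior was 26.3 per Mb. Trim71, an RNA-binding ubiquitin ligase of stem cells, had 9 members at 272 per Mb. Tcf7l1, the transcription factor that represses Wnt targets in stem cells, had 25 (175 per Mb, chr6:72626371-72789045), and Esrrb had 20 (142 per Mb, chr12:86361117-86521628), 1 of them at the internal start printed above. The methylcytosine dioxygenase genes Tet2 and Tet1 had 9 (146 per Mb) and 7 (111 per Mb). The transcription factor gene Tfcp2l1 had 5 (134 per Mb), Lifr 8 (92.1 per Mb) and the Polycomb accessory gene Jarid2 11 (64.4 per Mb). Manba, which encodes a lysosomal mannosidase and is no regulator of pluripotency, had 9 (137 per Mb). Without it, a choice made after its value was seen, 10 of 12 genes held a member, with medians of 7.5 members and 102 per Mb. Lin28b, an inhibitor of let-7 processing, had 3 (33.4 per Mb). Stat3, the transducer of LIF signals, and Il6st, the co-receptor gp130, had 0, in interiors of 32.8 and 22.8 kb. Klf5, Prdm14, Mycn and Sall4 are too short for an interior.

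Chromatin regulators and signalling genes were intermediate. The median lengths of these lists were 168 and 117 kb, and of all genes of 100 to 200 kb 80.2% held a member. The median of such genes with at least 20 kb of interior was 22.9 per Mb. Members lay in 17 of 20 chromatin genes (median 3.5 members, 41.4 per Mb), led by Arid1b (35), the atrophin-family co-repressor gene Rere (25, 78 per Mb) and Kdm2b (13, 132 per Mb). Dnmt3a had 11 (118 per Mb). The histone methyltransferase genes Ezh2 and Kmt2c and the remodeller gene Ep400 had 0, in 45, 207 and 86.6 kb. Of the signalling genes 19 of 20 held a member (median 3, 31.4 per Mb). Pde4d had 32, the insulin-like growth factor receptor gene Igf1r 13 and the Wnt effector gene Tcf7l2 10. The activin receptor gene Acvr2a and the signal transducer gene Smad2 had 1 each and the TGF-beta receptor gene Tgfbr2 had 0.

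Genes of other lineages were not free of members. The next 3 lists had median lengths of 268, 345 and 252 kb, and of all genes of 200 to 500 kb 88.8% held a member, with a median of 4. The median density of such genes with at least 20 kb of interior was 16.2 per Mb. Somatic transcription factor genes held them in 20 of 23 (median 6 members, 23.9 per Mb), with 19 in Tcf4, 17 each in Zfhx3 and Sox5, and 0 in Zbtb16, Foxp2 and Bcl11a. Cytoskeletal regulator genes held them in 19 of 19 (median 9, 22.1 per Mb). The scaffold gene Magi1 had 28, the focal adhesion gene Tns3 25 (117 per Mb) and the unconventional myosin gene Myo10 23 (134 per Mb), while Magi3 had 1 and the formin gene Fmn2 and the focal adhesion kinase gene Ptk2 had 2 each. Trafficking and protein turnover genes held them in 17 of 18 (median 2.5, 13 per Mb), with 20 in Wwox, 13 each in Exoc4 and Vps13d, 1 in Birc6 and Ubr3, and 0 in Herc1.

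The neuronal adhesion and synapse list had many members per gene and few per Mb. Its genes are long, with a median of 1200 kb, and 23 of 24 held a member, against 95.3% of all genes over 500 kb. The median was 8 as in the naive pluripotency list. Per Mb its median was 4.55, below the 7.54 of all genes over 500 kb, against 111 in the naive list. Auts2 had 29 (26.7 per Mb), and Magi2 and Rbfox1 had 21 each (14.3 and 13.9 per Mb). The potassium channel partner gene Kcnip4 and the glutamate receptor gene Grm7 had 2 each and Nrg3 had 0. Lists differ in gene length, were chosen with results of these data known, and carry no test.

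**Figure D5:**
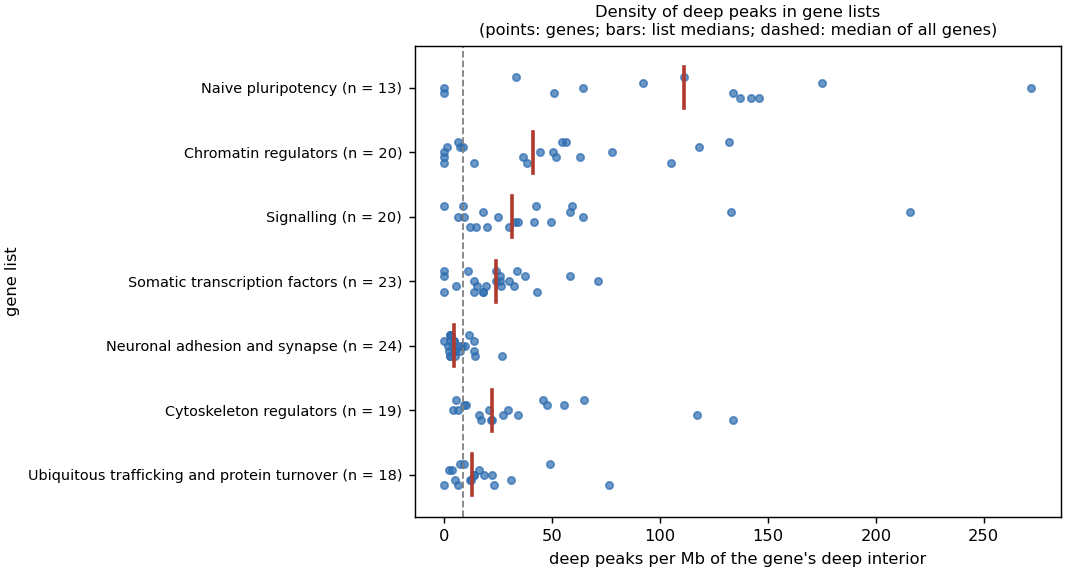
Peaks per Mb of deep interior for every gene of the 7 lists that has a deep interior (points), with list medians (red bars) and the median of all 9410 genes (dashed line, 8.68 per Mb). The dashed line includes many genes with short interiors and is not matched to the lists in gene length. The naive pluripotency genes have a median of 111 with Stat3 and Il6st at 0, and the neuronal genes all lie at 26.7 or below with a median of 4.55.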

How the data were processed

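ATAC-seq was done on 8 samples, 4 control and 4 Dox, grouped by the sample titles. The build was GRCm38, and the tools were HOMER 4.11, deepTools 3.5.1, SAMtools 1.16.1, Bowtie2 2.5.0, Trimmomatic 0.39 and Picard 2.10.9, per the submitters' processing notes. Not given in the sources used here are the peak caller, its threshold and any pooling of samples. The authors deposited 1 list of peak positions (chromosome, start counted from 0, end) with no score, height or sample value. Positions are printed counted from 1.

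RefSeq's gene table of GRCm38.p6 held 21896 protein-coding genes. Of these 126 had scaffold, patch or mitochondrial positions, and 4 more listed without a position were not used, which left 21770 placed on chromosomes 1 to 19, X and Y. Strand, starts and sequences came from the RefSeq promoter table of the same build, which is not complete. Exons and introns were not used here. Densities are members per Mb of deep interior with exact 95% Poisson intervals, and shares have exact (Clopper-Pearson) 95% binomial intervals. Both cover counting error only. No p-value was computed, since genes and peaks are not replicates, and direction was counted over chromosomes. Procedures were tested on simulated data. Python 3.11.15, NumPy 2.4.6, SciPy 1.17.1, pandas 2.3.3 and matplotlib 3.10.9 were used.

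The regions and the gene lists were chosen with earlier results of these data known. Named genes are the 12 with most members, the 8 of highest density (at least 20 kb of interior and 5 members), the 8 longest interiors without a member, the densest runs within 20 kb, and the 3 genes with most and the 3 with fewest members of each list. A gene of these lists is not reported here. Other named genes were chosen after their values were seen. Alternatives tried were other distances from gene ends, other width limits, the ends of all annotated genes, the whole peak, peaks within 1 kb joined, and other sets of genes.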

Additional observations from a re-analysis of the deposited data

Results flagged for a closer look

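Chromosome X was outside the rule, and the same kind of peak was present there. By the same width and distance limits, 199 peaks lay deep inside its protein-coding genes in 33.1 Mb of interior. That is 6.01 per Mb (exact 95% Poisson interval 5.2 to 6.9), below the lowest autosome (20.7 on chromosome 1). Of 396 X genes with a deep interior 95 (24%) held such a peak, against 53.5% of autosomal genes. Neither gene length nor the copy number of chromosome X was taken into account in these comparisons. The co-repressor gene Bcor had 13 in 104 kb, Nhsl2 had 11 in 198 kb, the dystrophin gene Dmd 11 in 2300 kb, Shroom2 7 and Klf8 6.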

How the results depend on the processing

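Of 45 alternatives over 8 results, 40 stayed within the spread over chromosomes, the interval or 1.5 times the main count. Some of these limits were wide. The SD over chromosomes was 1.92 around the density ratio of 4.23 and 0.244 around the long-gene ratio of 0.657. The count of 40 is therefore a weak check, and the values themselves follow. The share of genes with a member, 53.5%, was 52.3% with a limit of 5 kb from gene ends, 57.4% with 20 kb and 50.7% with the ends of all annotated genes. The rank correlation with gene length, 0.604, was 0.453 in genes with at least 20 kb of interior. The share of deep protein-coding starts with a peak, 28.8%, was 32.3% with no width limit. The number of members ranged from 12940 (over 20 kb from ends) to 23494 (over 5 kb), and was 14901 with the ends of all genes. The density of genes of 20 to 50 kb was 4.23 times that of genes over 500 kb and stayed between 4.18 and 4.35. The 5′ to 3′ ratio in long genes, a result added after seeing the data like the share of deep starts, stayed between 0.644 and 0.74 against 0.657. The ratio inside to outside genes, 1.71, stayed between 1.66 and 1.77. No paired analysis was possible because the peak list carries no value per sample, and for the same reason no replicate could be left out. Depth behind the list is unknown, so a gene without a peak is one where none was called.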
